A study of Mus musculus with 8 samples.

Results

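The Slc25 family of mitochondrial carriers was examined in brain cortex of mice on a normal diet and on a high fat diet. Its members were taken as the protein-coding rows of the deposited expression table whose gene name starts with Slc25a. This rule reads names and no measured value, but it was chosen with earlier results of these data known. The rule found 38 genes among the 13996 rows of the table, of which 12531 are mRNAs. A list of 48 Slc25 names was used to sort them by substrate, and 10 of those names had no row in the values used here, namely Slc25a2, Slc25a13, Slc25a21, Slc25a24, Slc25a31, Slc25a41, Slc25a43, Slc25a48, Slc25a52 and Slc25a54.

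The study sequenced total RNA, after removal of ribosomal RNA, from the cortex of 8 male C57BL/6 mice, with 1 library per mouse. All entered the study at 8 weeks of age. For the next 8 weeks 4 mice (normal mice) ate a conventional diet and 4 mice (high fat diet fed mice) a diet of 60% fat by weight, and the cortex was taken at 16 weeks of age. No allele or drug differed between the groups, and the model was limited to 1 sex, 1 strain and 1 feeding time. Values are FPKM, fragment counts scaled to transcript length and to the mapped total, so they can be compared between genes, while the number of reads behind each value is unknown.

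Carriers of the Slc25 family sit mostly in the inner mitochondrial membrane, which is closed to nearly all metabolites. Each moves a small set of substrates, often by exchanging a molecule inside the mitochondrion for another outside it. In brain they are known for bringing ADP and phosphate to the ATP synthase and returning ATP to the cytosol, for the malate and aspartate shuttle that carries reducing equivalents, and for the handling of glutamate, coenzymes, iron and calcium-linked adenine nucleotides.

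The tissue label was checked first. Markers of cortical excitatory neurons such as Slc17a7 and Camk2a were present in every mouse, and their summed level was 423.8 to 603.4 FPKM on the normal diet and 649.6 to 816.7 FPKM on the high fat diet, with 5 of 7 markers higher by the test used below. Markers of other regions and cells also differed with diet. Striatal markers summed to 214.1 to 401.6 FPKM under normal feeding and 69.8 to 79.7 FPKM under the high fat diet (7 of 7 lower), and oligodendrocyte markers to 2115 to 3487 and 1458 to 2026 FPKM (8 of 8 lower). Cerebellar markers summed to 33.4 to 394.5 FPKM in normal mice, with the highest levels in normal mice 2 and 3, and to no more than 33.1 FPKM in high fat diet fed mice (5 of 8 lower). The defining granule cell gene Gabra6 read 1.7, 46.5, 61.7 and 12.2 FPKM in normal mice 1 to 4. In high fat diet fed mice it read at most 0.2 FPKM, and a 0 in 1 mouse kept it out of the test. Blood markers (5 of 5 lower) and choroid plexus markers (2 of 5 lower) ran from 239.2 to 479.7 and from 342.7 to 725.5 FPKM in normal mice, against 199.1 to 247.4 and 21.0 to 940.6 FPKM. Astrocyte markers (1 higher and 2 lower of 7; 1168 to 1308 against 1162 to 1232 FPKM) and microglial markers (0 of 6 by limma, 1 at an unadjusted p below 0.05; 105.4 to 128.3 against 110.7 to 121.9 FPKM) overlapped between diets. In bulk tissue, fewer cells of a type and less RNA per cell cannot be told apart. The 2 fits given further on concern the cerebellar signal only. Striatal Penk was 131.5 and 71.3 FPKM in normal mice 1 and 4, which both fits keep, against 9.3 to 12.3 FPKM on the high fat diet. The part of the other markers in the Slc25 results was not tested, and tissue content and diet cannot be told apart here.

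Levels of the 38 carriers spanned a 304-fold range (plot of levels by mouse). Mean FPKM over 8 mice ran from 1.02 for Slc25a35 to 311.6 for Slc25a4, with a median of 14.2. The adenine nucleotide carriers Slc25a4 and Slc25a5 and the phosphate carrier Slc25a3 were the 3 members over 100 FPKM, and together they held 56.2 to 56.9% of the family's summed FPKM on the normal diet but 50.5 to 51.7% on the high fat diet. The sum over all members was 1184 to 1230 FPKM with the normal diet against 1071 to 1117 FPKM with the high fat diet, without overlap of the ranges. As a share of all FPKM of a mouse the ranges touched, at 0.191 to 0.202% and 0.174 to 0.191%. The family sum is weighted to its most abundant members. Slc25a4 and Slc25a5 alone summed to 508.0 to 536.9 FPKM (normal) and 399.7 to 426.5 FPKM (high fat diet). The median level of a member overlapped between diets, at 13.25 to 13.85 and 13.05 to 13.75 FPKM. At the other end 11 members lay under 5 FPKM and 4 under 2 FPKM, where the rounding of the table to 0.1 FPKM is a visible step. The median coefficient of variation among mice was 6.19% (normal) and 7.14% (high fat diet).

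**Figure D1:**
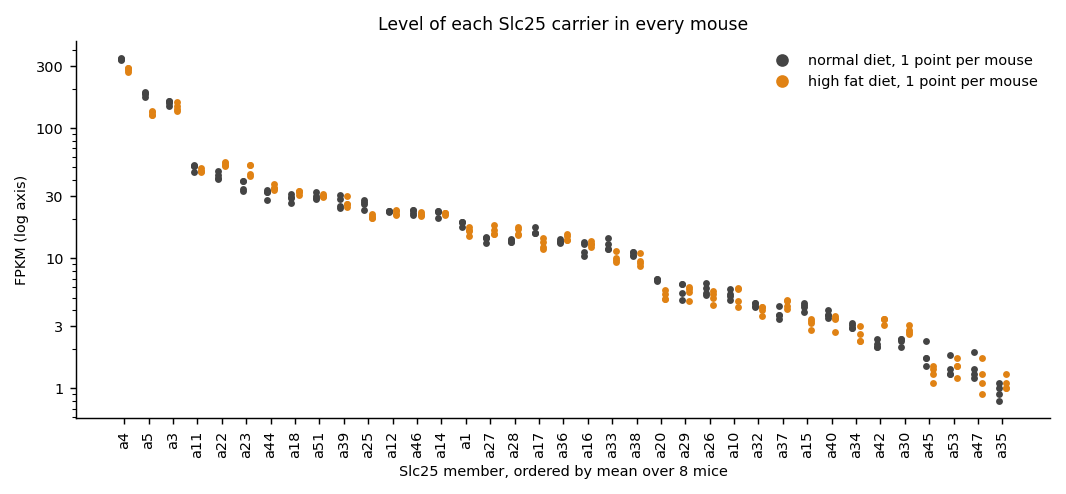
FPKM of 37 Slc25 carriers (log axis) in 4 normal mice (grey) and 4 high fat diet fed mice (orange), 1 point per mouse, ordered by the mean over 8 mice. Slc25a4, Slc25a5 and Slc25a3 stand above 100 FPKM in every mouse and Slc25a35 is lowest near 1 FPKM.

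To ask which carriers differed with diet, log2(FPKM + 0.1) was compared with limma over 13982 genes, and a gene was called when its Benjamini-Hochberg adjusted p was below 0.05. Of the 38 members 5 were higher in high fat diet fed mice (13.2%, against 17.7% of all genes tested) and 9 were lower (23.7%, against 15.3%). Of the 12519 tested mRNAs, the class of every member, 16.5% were higher and 16.8% lower. Among the lower members were Slc25a5, Slc25a15, Slc25a20, Slc25a25, Slc25a17, Slc25a33, Slc25a4 and Slc25a1, and the higher members were Slc25a42, Slc25a23, Slc25a22, Slc25a28 and Slc25a27. Without the adjustment 9 of 38 members were higher and 12 lower at p below 0.05, beside 3234 higher and 2965 lower of all 13982 genes. The family's shares were not tested against the background and are given as a description. No member's fitted change reached 1.5-fold, whatever its p, while 7.13% of all genes were called at that size (713 of 12519 among mRNAs).

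The median log2 change of the members was -0.06, with quartiles of -0.21 and 0.13, beside 0.003 over all genes and -0.01 over mRNAs. In size the median change of 0.18 was close to the 0.17 of all genes and the 0.16 of mRNAs. The 4 high fat diet fed mice all lay above the 4 normal mice for 6 members (15.8%, against 17.2% of all genes and 16.3% of mRNAs). They all lay below for 8 members (21.1%, against 14.7% and 16.1%). Among the 14 called members only Slc25a1 had overlapping groups, while Slc25a30 had no overlap but missed the threshold (adjusted p = 0.0532). Calls were more frequent and errors smaller at high levels, and a link between them was not tested. The 23 members at 10 FPKM or more had a median standard error of 0.06 and 11 calls. The 15 members below had a median standard error of 0.10 and 3 calls. The shares of all genes at these levels are not given. A fit of genes with a mean of at least 5 FPKM called 3671 of 9638 (38.1%), beside 4626 of 13982 in the main fit.

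**Figure D2:**
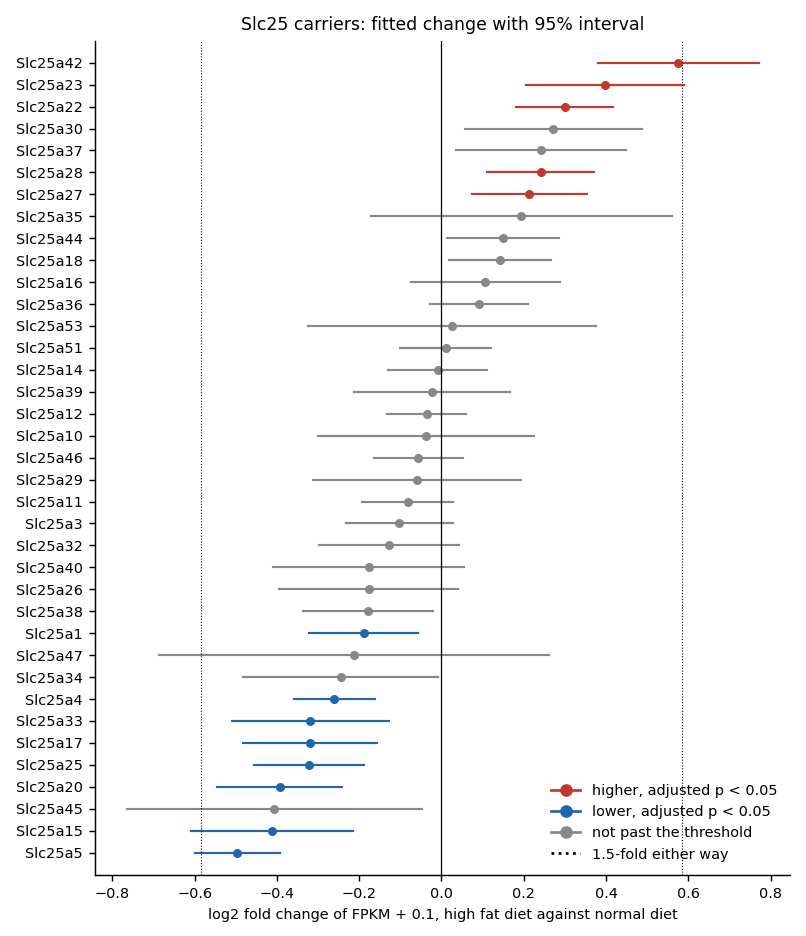
Fitted log2 change of FPKM + 0.1 (high fat diet against normal diet, 4 mice each) with its 95% interval for 37 Slc25 carriers. Members called higher are red (5), members called lower are blue (8 drawn) and the 24 others are grey, and no point lies outside the dotted lines at 1.5-fold.

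The calls were also read against the mice with cerebellar signal. When normal mice 2 and 3 were left out, a comparison added after the data were seen, 3 members were higher and 5 lower (of 2743 genes called in all), and 7 of the 14 calls were kept, namely Slc25a4, Slc25a5, Slc25a17, Slc25a20, Slc25a22, Slc25a25 and Slc25a42, with Slc25a18 gained. When the mean log2 level of the cerebellar markers entered the fit as a covariate, only Slc25a5 was still called among the members (-0.46 ± 0.08 SE, adjusted p = 0.0229). In that fit 543 genes (3.88% of those tested) were called in all. No called member changed sign under either setting, and under the covariate the members kept a median of 84.4% of their change while the median standard error went from 0.06 to 0.11. Slc25a23 and Slc25a33 shrank most in that fit, to 0.18 and -0.15.

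Promoters were looked at because a shared letter pattern upstream is a feature that the choice of genes did not use. RefSeq promoter windows (250 bases before to 50 after a start, GRCm38.p6) were at hand for 29 members, 8 of them lower, 4 higher and 17 not called. The stretches below show, for 3 lower members (Slc25a5, the adenine nucleotide carrier with the largest fall, Slc25a20 and Slc25a17) and for the member with the largest rise (Slc25a42), the bases upstream of the start that no annotated exon covers. They are written 5′ to 3′ on the gene's strand, and capitals mark the ETS core, which the stretches of Slc25a5 and Slc25a42 did not hold. The lower members shown are examples and not the largest falls. Slc25a15 (log2 change -0.411), without an ETS core in its window, and Slc25a25 (-0.323) fell by more than Slc25a17 (-0.320) and are not shown.
Slc25a5 (chrX:36795347-36795596, plus strand): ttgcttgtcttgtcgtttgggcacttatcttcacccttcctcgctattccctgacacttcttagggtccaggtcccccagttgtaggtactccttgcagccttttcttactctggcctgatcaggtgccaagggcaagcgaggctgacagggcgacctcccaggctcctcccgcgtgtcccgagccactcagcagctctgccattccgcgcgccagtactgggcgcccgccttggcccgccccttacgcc
Slc25a20 (chr9:108661886-108662087, plus strand): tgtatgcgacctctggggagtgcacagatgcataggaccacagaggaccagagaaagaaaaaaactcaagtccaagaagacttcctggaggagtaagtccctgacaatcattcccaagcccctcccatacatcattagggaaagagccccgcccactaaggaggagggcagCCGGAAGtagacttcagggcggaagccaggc
Slc25a17 (chr15:81360813-81361015, minus strand): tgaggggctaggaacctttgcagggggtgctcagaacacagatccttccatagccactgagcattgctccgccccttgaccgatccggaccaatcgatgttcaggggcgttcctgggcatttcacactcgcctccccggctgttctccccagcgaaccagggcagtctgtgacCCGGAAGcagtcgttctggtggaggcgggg
Slc25a42 (chr8:70212306-70212531, minus strand): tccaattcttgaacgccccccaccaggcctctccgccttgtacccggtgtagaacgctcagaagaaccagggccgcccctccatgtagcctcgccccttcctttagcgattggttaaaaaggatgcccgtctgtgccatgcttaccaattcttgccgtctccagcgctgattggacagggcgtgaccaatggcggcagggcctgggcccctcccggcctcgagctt

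The ETS core CCGGAAG, the letters read by factors such as GABPA, was searched on both strands of the full windows. It stood in a window of 6 of the 29 members (20.7%), beside 19.2% of the 9411 tested mRNAs with a window and 9.93% of all 27025 genes with a window. By call it stood in 4 of 8 lower members (Slc25a4 at -130, Slc25a20 at -79, Slc25a17 at -77 and Slc25a25 at 7, counted in bases from the start), in 0 of 4 higher members and in 2 of 17 not called (Slc25a3 and Slc25a38). The E-box CACGTG stood in 5 members (17.2%, beside 11.9% of tested mRNAs and 8.09% of all genes with a window), of which Slc25a1, Slc25a15 and Slc25a33 were lower and Slc25a14 and Slc25a36 not called. The cAMP response element TGACGTCA stood in Slc25a25 and Slc25a36 (6.9%, beside 3.75% and 2.03%). Neither the NRF1 core TGCGCATGC (3.43% of tested mRNAs, 1.72% of all genes with a window) nor the estrogen-related receptor element TCAAGGTCA (0.372% and 0.466%) was found in a member's window. These matches describe letters in a window, and no motif's share was tested between calls.

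Both adenine nucleotide carriers of the table, which exchange cytosolic ADP for matrix ATP, fell on the high fat diet. Slc25a5 (chrX:36795651-36798807, plus strand) read 183.4, 189.6, 187.8 and 174.9 FPKM in normal mice 1 to 4, and 136.1, 127.3, 132.3 and 125.9 FPKM in high fat diet fed mice 1 to 4. Every high fat diet fed mouse was far below the lowest normal mouse. Its log2 change was -0.50 ± 0.05 (SE; 95% interval -0.60 to -0.39; adjusted p = 0.000317), or 1.41-fold lower. The annotation holds 1 pseudogene named after a member, Slc25a5-ps, with which reads of Slc25a5 could have been shared, so its level carries that uncertainty.

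Slc25a4 (chr8:46206797-46211284, minus strand), the form best known from heart, muscle and brain, read 337.8, 347.3, 340.6 and 333.1 FPKM on the normal diet and 290.4, 272.4, 281.3 and 290.1 FPKM on the high fat diet. The groups were again fully apart, and the change of -0.26 ± 0.04 (adjusted p = 0.0028) meant that the mean fell by 16.5%. Since Slc25a5 fell by more, the ratio of Slc25a4 to Slc25a5 within a mouse moved from 1.81 to 1.90 (normal) to a range of 2.13 to 2.30 (high fat diet).

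Phosphate for the ATP synthase enters through Slc25a3, which was not called. It read 161.4, 162.7, 148.0 and 157.4 FPKM under normal feeding and 148.0, 141.7, 160.4 and 136.8 FPKM under the high fat diet, and the groups overlapped (log2 change -0.10, 95% interval -0.23 to 0.03, adjusted p = 0.199). The order of Slc25a5 and Slc25a3 was not the same in both diets. All 4 normal mice had more Slc25a5 than the highest Slc25a3 value of their group, and all 4 high fat diet fed mice had less Slc25a5 than the lowest Slc25a3 value of theirs.

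The ATP-Mg/phosphate carriers, which shift the adenine nucleotide pool of the matrix and respond to cytosolic calcium, moved in opposite directions. Slc25a23 (chr17:57043711-57059863, minus strand) read 39.5, 33.0, 34.0 and 39.5 FPKM with the normal diet against 44.8, 51.9, 52.5 and 43.3 FPKM with the high fat diet. Normal mice 2 and 3, which had the highest cerebellar markers, were the lowest, and all high fat diet fed mice were above all normal mice. It rose by 0.40 ± 0.09 on the log2 scale (adjusted p = 0.0077), by 0.28 with adjusted p = 0.0559 when normal mice 2 and 3 were left out, and by 0.18 with adjusted p = 0.413 under the cerebellar covariate.

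Slc25a25 (chr2:32414487-32451445, minus strand) read 26.3, 28.2, 27.1 and 23.6 FPKM on the normal diet and 21.8, 20.3, 21.2 and 20.6 FPKM on the high fat diet. The groups did not overlap, and the mean fell by 20.2% (-0.32 ± 0.06, adjusted p = 0.0040). Genes lie on the opposite strand within both loci (Naif1 in Slc25a25, Crb3 and Gm17168 in Slc25a23), and it is not given whether strand was used in counting, so part of these values could belong to them.

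Of the carriers of amino acids, 1 of 7 measured rose and 1 fell (14.3% each, near the 17.7% and 15.3% of all genes). Slc25a22 (chr7:141429744-141437892, minus strand), a glutamate carrier of the inner membrane, read 43.4, 41.8, 40.7 and 47.2 FPKM under normal feeding and 55.0, 52.2, 54.1 and 51.5 FPKM under the high fat diet. All high fat diet fed mice were above all normal mice (0.30 ± 0.05, adjusted p = 0.0034). The second glutamate carrier, Slc25a18, known mainly from astrocytes, read 26.6, 31.5, 29.4 and 29.3 FPKM with the normal diet against 33.0, 30.9, 32.2 and 32.7 FPKM with the high fat diet. These groups overlapped through normal mouse 2, and the change of 0.14 ± 0.06 did not pass (adjusted p = 0.0739). It was called without normal mouse 2 (0.18, adjusted p = 0.0425) and without normal mice 2 and 3 (0.20, adjusted p = 0.0408).

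Slc25a15 (chr8:22375551-22398597, minus strand), the ornithine carrier tied to the urea cycle, was low in cortex and read 4.2, 4.4, 4.5 and 3.9 FPKM on the normal diet and 3.2, 3.4, 2.8 and 3.3 FPKM on the high fat diet. The groups were apart, with a change of -0.41 ± 0.09 (adjusted p = 0.0075) that became -0.34 with adjusted p = 0.0638 without normal mice 2 and 3.

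Slc25a12, the aspartate and glutamate exchanger of the malate-aspartate shuttle, read 23.1, 23.0, 22.9 and 23.2 FPKM under normal feeding and 23.1, 21.7, 23.4 and 21.8 FPKM under the high fat diet, a difference of -0.04 on the log2 scale with a 95% interval of -0.13 to 0.06. Slc25a44, a carrier of branched-chain amino acids, read 33.4, 32.5, 28.3 and 32.2 FPKM with the normal diet against 37.4, 33.3, 34.7 and 34.7 FPKM with the high fat diet. Only high fat diet fed mouse 2 fell among the normal values, and the difference of 0.15 was not called (adjusted p = 0.0869). The basic amino acid carrier Slc25a29 and the glycine carrier Slc25a38 had log2 changes of -0.06 and -0.18, neither called.

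Slc25a20 (chr9:108662088-108684641, plus strand), which exchanges carnitine for acylcarnitine and so feeds long-chain fatty acids to the matrix, read 6.9, 6.8, 7.0 and 6.7 FPKM on the normal diet and 4.9, 5.7, 4.9 and 5.3 FPKM on the high fat diet. The normal mice were within 0.3 FPKM of each other and all stood above the high fat diet fed mice. The gene was 1.31-fold lower (-0.39 ± 0.07, adjusted p = 0.0030), and the call held without normal mice 2 and 3 (-0.38, adjusted p = 0.0231). Of the 4 measured genes listed for the carnitine shuttle, Cpt1a, Cpt2 and Crat were not called. The listed brain form Cpt1c rose (0.30 ± 0.06, adjusted p = 0.0074), and whether it takes part in this shuttle was not tested.

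Among the 9 measured carriers of nucleotides and cofactors 1 rose and 3 fell (11.1% and 33.3%, beside 17.7% and 15.3% of all genes and 16.5% and 16.8% of mRNAs). Slc25a42 (chr8:70184340-70212305, minus strand), a carrier of coenzyme A and adenine nucleotides, had the largest change of the family and read 2.1, 2.1, 2.2 and 2.4 FPKM under normal feeding and 3.1, 3.4, 3.4 and 3.4 FPKM under the high fat diet. Every high fat diet fed mouse exceeded every normal mouse. It rose by 0.58 ± 0.09 on the log2 scale (95% interval 0.38 to 0.77, adjusted p = 0.0018), just under 1.5-fold on the scale with the added constant, while its plain mean was 51.1% higher.

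Slc25a17 (chr15:81318911-81360812, minus strand), a peroxisomal carrier of coenzyme A and related cofactors, read 17.4, 15.8, 15.7 and 15.6 FPKM with the normal diet against 11.7, 14.4, 12.2 and 13.4 FPKM with the high fat diet. The groups did not overlap (-0.32 ± 0.07, adjusted p = 0.0095). Slc25a42 and Slc25a17, both linked to coenzyme A, thus changed in opposite directions.

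Slc25a33 (chr4:149744036-149774277, minus strand), a pyrimidine nucleotide carrier, read 11.7, 14.4, 13.0 and 11.7 FPKM on the normal diet and 10.1, 9.7, 11.4 and 9.4 FPKM on the high fat diet. The gap between the groups was 0.3 FPKM, and the change of -0.32 ± 0.09 (adjusted p = 0.0191) was -0.21 with adjusted p = 0.121 without normal mice 2 and 3. Under the cerebellar covariate it was -0.15 (adjusted p = 0.545), and it missed the threshold without high fat diet fed mouse 2 (adjusted p = 0.0555). The antisense gene Gm13068 overlaps it. Its relative Slc25a36 read 13.6, 13.3, 14.2 and 13.2 FPKM under normal feeding and 13.8, 14.9, 13.9 and 15.3 FPKM under the high fat diet, with overlap and no call (0.09, adjusted p = 0.211).

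The NAD carrier Slc25a51 read 28.6, 30.1, 32.5 and 29.0 FPKM on the normal diet and 29.9, 30.4, 31.1 and 29.5 FPKM on the high fat diet. The high fat diet fed mice lay inside the range of the normal mice (0.01, 95% interval -0.10 to 0.12). Slc25a16, Slc25a26 and Slc25a32 had log2 changes of 0.11, -0.18 and -0.13 and were not called.

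**Figure D3:**
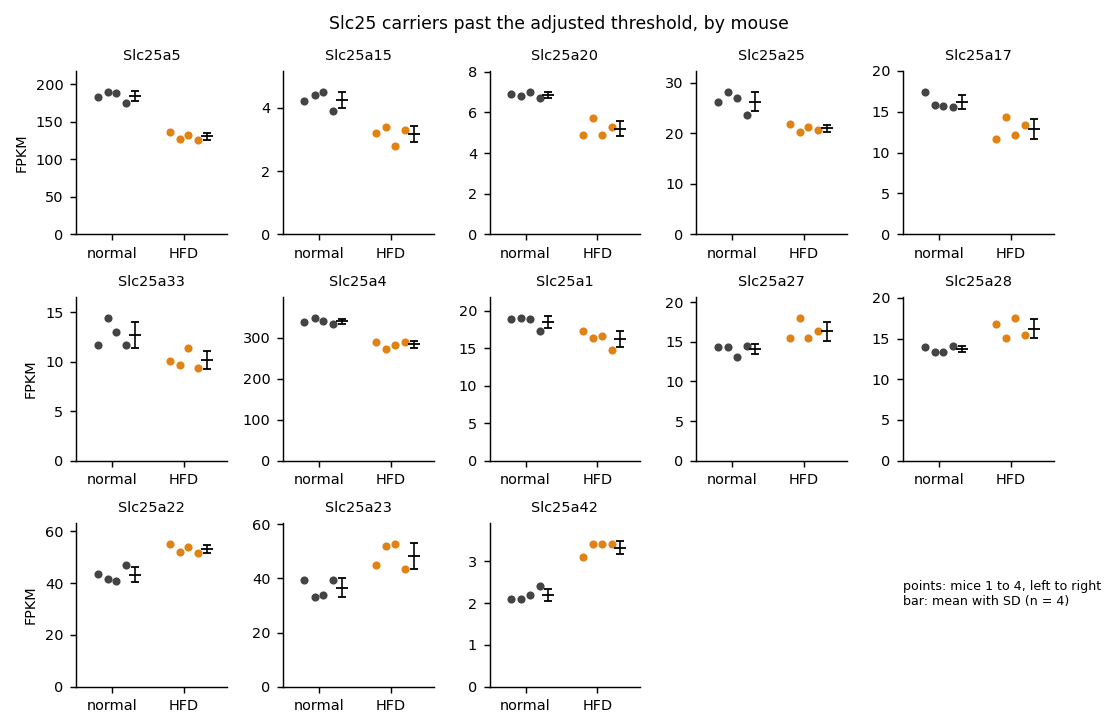
FPKM by mouse for 13 Slc25 carriers with adjusted p below 0.05, each panel with its own axis from 0. Points are mice 1 to 4 from left to right in normal (grey) and high fat diet fed mice (HFD, orange), and the black bar is the mean with SD (n = 4). The groups are apart in every panel but that of Slc25a1.

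Carboxylate carriers differed little. The citrate carrier Slc25a1, which exports citrate for lipid synthesis, ranged from 17.3 to 19.0 FPKM under normal feeding and from 14.8 to 17.3 FPKM under the high fat diet, with both groups touching at 17.3. Its change of -0.19 ± 0.06 passed (adjusted p = 0.0356) but was called in only 2 of the 8 fits that left out 1 mouse. Slc25a11, the oxoglutarate and malate exchanger of the malate-aspartate shuttle, read 51.7, 51.8, 51.1 and 46.4 FPKM with the normal diet against 49.6, 46.8, 47.3 and 46.0 FPKM with the high fat diet. With normal mouse 4 low, the groups overlapped (-0.08, adjusted p = 0.220). The dicarboxylate carrier Slc25a10 had a log2 change of -0.04.

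Of the relatives of the uncoupling proteins, Slc25a27 was higher, from 13.1 to 14.5 FPKM in normal mice to 15.5 to 18.0 FPKM in high fat diet fed mice (0.21 ± 0.06, adjusted p = 0.0274). It was called in 5 of the 8 fits that left out 1 mouse. Slc25a14, also abundant in neurons, read 22.6, 23.2, 20.3 and 23.3 FPKM on the normal diet and 22.3, 22.5, 21.4 and 22.5 FPKM on the high fat diet. Its groups overlapped fully, with a log2 difference of -0.01 and a 95% interval of -0.13 to 0.11. Slc25a30 ranged from 2.1 to 2.4 and from 2.6 to 3.1 FPKM.

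In the iron and glutathione list, the iron carrier Slc25a28 (mitoferrin) was higher, with 13.3 to 14.1 FPKM under normal feeding and 15.1 to 17.5 FPKM under the high fat diet (0.24 ± 0.06, adjusted p = 0.0130). Its relative Slc25a37, which supplies iron to heme synthesis in red cell precursors, had a change of equal size, 0.24, with overlapping groups and a larger error of 0.09 (adjusted p = 0.0700). The glutathione carrier Slc25a39 read 25.3, 30.9, 28.5 and 24.4 FPKM with the normal diet against 26.4, 24.7, 29.9 and 26.1 FPKM with the high fat diet. Slc25a40, of the same function, read 3.7, 3.5, 3.7 and 4.0 FPKM on the normal diet and 3.4, 3.6, 2.7 and 3.5 FPKM on the high fat diet. Both overlapped between diets, with log2 changes of -0.02 and -0.18.

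None of the 6 measured members of the outer membrane or without a settled substrate was called by limma, beside 17.7% of all genes higher and 15.3% lower. An unadjusted p below 0.05 was found for 2 of the 6, beside 6199 of the 13982 genes tested. Slc25a46, an outer membrane protein linked to mitochondrial fission, was the most abundant of them at 22.4, 23.5, 21.4 and 23.5 FPKM under normal feeding and 22.7, 22.0, 21.6 and 21.0 FPKM under the high fat diet. These values overlapped (-0.06, 95% interval -0.16 to 0.05). The others, Slc25a34, Slc25a35, Slc25a45, Slc25a47 and Slc25a53, had mean levels of about 1 to 3 FPKM and log2 changes from -0.41 to 0.19. The largest, -0.41 for Slc25a45, had a standard error of 0.16 (adjusted p = 0.0771).

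Paired members of like function were then compared within each mouse, where a factor shared by all genes of a library cancels (plot of ratios by mouse). Exact two-sided permutation tests over 70 assignments were used, whose smallest p is 0.0286, with adjustment over 5 pairs. A planned ratio of Slc25a12 to Slc25a13 could not be formed, and adjusting over fewer pairs than planned is milder. The ratio of Slc25a23 to Slc25a25 was 1.5, 1.17, 1.25 and 1.67 in the normal mice, against 2.05, 2.55, 2.47 and 2.10 under the high fat diet. It went from 1.38 to 2.28 on average, a log2 difference of 0.72 (exact p = 0.0286, adjusted 0.0476). On the high fat diet all Slc25a23 values were higher and all Slc25a25 values lower. The exact p was therefore bound to be the smallest possible and adds nothing to the calls of these genes.

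The ratio of Slc25a4 to Slc25a5 rose from 1.85 to 2.17 on average (log2 difference 0.23, exact p = 0.0286, adjusted 0.0476), and that of Slc25a33 to Slc25a36 fell from 0.933 to 0.702 (log2 difference -0.41, exact p = 0.0286, adjusted 0.0476). Neither pair overlapped between diets, and the possible sharing of reads with Slc25a5-ps bears on the first. The adjusted value depends on how many of the 5 pairs share the smallest exact p. The pair of Slc25a23 and Slc25a25, whose p was bound in advance, is among those that do. The pass of both pairs at 0.0476 therefore rests in part on that pair. The ratios of the glutamate carriers Slc25a22 and Slc25a18 (1.48 and 1.65, exact p = 0.114, adjusted 0.143) and of the glutathione carriers Slc25a39 and Slc25a40 (7.13 and 7.93, exact p = 0.486) overlapped and did not pass. For the glutamate pair the call of Slc25a22 and the lack of one for Slc25a18 were therefore not shown to be different responses.

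**Figure D4:**
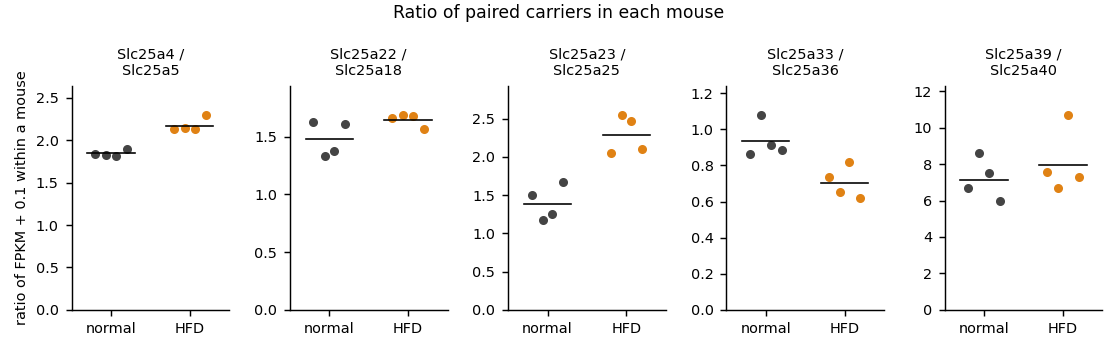
Ratio of FPKM + 0.1 of 5 pairs of Slc25 carriers within each of 4 normal mice (grey) and 4 high fat diet fed mice (HFD, orange), with the geometric mean as a line. Groups are apart for Slc25a4 to Slc25a5, Slc25a23 to Slc25a25 and Slc25a33 to Slc25a36 and overlap for the other pairs.

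Genes listed as partners of the carriers came from 39 names, of which 35 had a row. Among these 2 were higher and 10 lower (5.71% and 28.6%, beside 17.7% and 15.3% of all genes and 16.5% and 16.8% of mRNAs). The largest falls were those of Tomm70a, the import receptor for carrier proteins (-0.40 ± 0.05, adjusted p = 0.0009), of Mtch2, a distant relative in the outer membrane (-0.36 ± 0.06, adjusted p = 0.0035), and of Vdac3, an outer membrane channel (-0.35 ± 0.05, adjusted p = 0.0017). All 3 Vdac channels were lower. The higher genes were Sfxn3, of the sideroflexin family of amino acid carriers (0.63 ± 0.09, adjusted p = 0.0015), and Cpt1c. In the malate-aspartate shuttle Mdh1 was lower (-0.34 ± 0.04, adjusted p = 0.0011) while Mdh2, Got1 and Got2, like the carriers Slc25a11 and Slc25a12, were not called.

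Set beside other families in the same fit, the Slc25 carriers had calls in both directions. Over all genes 17.7% were higher and 15.3% lower, and over mRNAs 16.5% and 16.8%. Of 84 nuclear genes for the respiratory chain and ATP synthase 0 were higher by limma and 44 lower (52.4%), with a median log2 change of -0.18. Of 77 mitochondrial ribosomal protein genes 0 were higher and 21 lower (27.3%, median -0.09). At an unadjusted p below 0.05 the higher genes numbered 0 and 1. Among 190 other Slc transporters 34 were higher and 19 lower (median 0.02). The carriers' median of -0.06 lay between those of the mitochondrial families and that of the other transporters, a difference between families that was not tested.

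**Figure D5:**
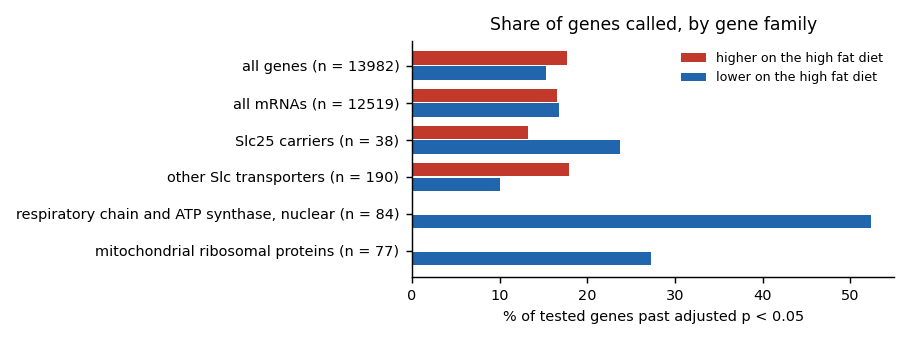
Share of tested genes (%) called higher (red) or lower (blue) on the high fat diet at adjusted p below 0.05, by family, with the number tested. Slc25 carriers have 13.2% higher and 23.7% lower, while the respiratory chain and mitochondrial ribosomal families have no gene called higher.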

How the data were processed

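RNA sequencing was performed on cortex of 8 mice, 4 on each diet, and the deposited values are FPKM. The authors made them from stranded paired-end libraries after quality checks (FastQC) and trimming (Trimmomatic), by STAR alignment to mm10 and Cuffnorm with GENCODE M17 (GRCm38.p6). Tool versions: not given in the sources used here. Rounding to 0.1 FPKM limits low genes, and the depth per mouse is unknown. FPKM summed to between 562431 and 639142 per mouse. The mouse was the replicate, and its number was taken from the labels.

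From these values log2(FPKM + 0.1) was tested by a two-sided test in limma 3.58.1 (R 4.3.3), allowing a variance trend, in place of the per-gene test in the paper's methods, and p-values were adjusted by the Benjamini-Hochberg method over 13982 genes (mean FPKM of 1 or more, no 0). A log2 change on this scale understates the change of low genes. On simulated data over 13982 genes 88 of 100 genes changed 2-fold and 34 of 100 changed 1.25-fold were recovered, with 8 of 13782 unchanged genes called. The simulation changed far fewer genes than the 4626 called in the data, and its noise was independent between genes. These rates need not hold for the data. Ratios were tested by exact permutation (scipy 1.17.1). Python 3.11.15, numpy 2.4.6, pandas 2.3.3 and matplotlib 3.10.9 were used.

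Members with every mouse's value were those called and over 1.2-fold, the 8 most abundant, the most abundant of each substrate list and both members of each pair, and among partner genes the 3 largest called changes each way. The members and lists were chosen with earlier results of these data known. Gene coordinates come from GENCODE M21 (GRCm38), a later release than M17, and promoters from RefSeq. Alternatives were an added constant of 1, no filter, a mean of at least 5 FPKM, rescaling by median ratios, a fit without variance trend, quantile normalization, a replicate block, cerebellar markers as a covariate, leaving out each mouse and, added later, leaving out normal mice 2 and 3. A planned ratio of Slc25a12 to Slc25a13 was not analysed here. The values of 1 called member are not reported here and are not drawn in the figures, while the counts include it.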

Additional observations from a re-analysis of the deposited data

Results flagged for a closer look

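In 76 groups of 4 mice (38 members on 2 diets), 5 had a mouse standing apart from the other 3 by Dixon's criterion, about as many as chance gives at 1 in 20. In normal mouse 4, Slc25a1 was 17.3 FPKM against 18.9 to 19.0 in the others, and Slc25a11 was 46.4 FPKM against 51.1 to 51.8. Slc25a17 was 17.4 FPKM in normal mouse 1 against 15.6 to 15.8, and Slc25a27 was 13.1 FPKM in normal mouse 3 against 14.3 to 14.5. Slc25a42 was 3.1 FPKM in high fat diet fed mouse 1 against 3.4 in each of the others, 3 steps of the table's rounding.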

How the results depend on the processing

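Of the 14 calls, 13 or more were kept under each change of added constant, filter (12 of 12 tested at a mean of at least 5 FPKM), scaling and variance trend. Slc25a45 was gained under quantile normalization (adjusted p = 0.0416) and Slc25a30 without the variance trend (0.0223). Cerebellar markers as a covariate left 0 members higher and 1 lower, and 0 partner genes higher and 2 lower, with 543 genes called in place of 4626. At an unadjusted p below 0.05 this fit by limma had 4 members and 1 partner gene higher and 8 members and 7 partner genes lower. The matching counts over all genes are not given, so these numbers are a description only. Leaving out normal mice 2 and 3 left 3 higher and 5 lower (2743 genes). Leaving out 1 mouse kept 10 to 14 calls and gained Slc25a37 (without normal mouse 1), Slc25a18 (normal mouse 2), Slc25a34 (high fat diet fed mouse 1) or Slc25a38 (high fat diet fed mouse 3). Slc25a33 was lost without high fat diet fed mouse 2. Slc25a1 was kept only without normal mouse 4 or high fat diet fed mouse 1. For Slc25a27 the call needed normal mouse 3 and mice 2 and 4 of the high fat diet. The count of members called and over 1.5-fold ranged from 0 to 1, being 1 (Slc25a42) without normal mouse 4 or high fat diet fed mouse 1. With the covariate Slc25a42 (0.59) and Slc25a45 (-0.75) were fitted past 1.5-fold and not called. Log2 ratio differences ranged from 0.21 to 0.25 for Slc25a4 to Slc25a5, from 0.64 to 0.81 for Slc25a23 to Slc25a25 and from -0.49 to -0.34 for Slc25a33 to Slc25a36, past the threshold whichever high fat diet fed mouse was left out and not past it whichever normal mouse was (adjusted p = 0.0714 to 0.0952). For Slc25a4 to Slc25a5 the exact p stayed at 0.0286, the smallest these tests allow, in each of those fits, and its adjusted p rose only with the p of other pairs. The cause of the other losses was not tested.

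Some members that were not called changed sign, each with an adjusted p far from the threshold. With the covariate the log2 changes were 0.13 for Slc25a47, 0.26 for Slc25a29, 0.14 for Slc25a10, 0.17 for Slc25a39, -0.11 for Slc25a53 and -0.13 for Slc25a16. Without normal mice 2 and 3 they were 0.10 for Slc25a29, 0.043 for Slc25a10, 0.10 for Slc25a39, -0.11 for Slc25a53 and -0.031 for Slc25a16. Quantile normalization gave -0.042 for Slc25a53. Leaving out 1 mouse gave -0.14 to 0.013 for Slc25a29, -0.11 to 0.053 for Slc25a10, -0.078 to 0.038 for Slc25a39, -0.055 to 0.011 for Slc25a14, -0.013 to 0.048 for Slc25a51 and -0.042 to 0.13 for Slc25a53.

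Same-numbered mice did not deviate together (correlations -0.11 to -0.03), so no pairing by number was seen. With 4 mice per diet this check cannot exclude a pairing. With a replicate block 5 members were higher and 8 lower, and the ratio differences of 0.23, 0.72 and -0.41 had the smallest exact p that 4 pairs allow, 0.125 (adjusted 0.208). The unknown depth allows no counting error, and under 2 FPKM a rounding step is large against the differences seen.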
